A study of Homo sapiens with 4 samples.

Results

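The cytosolic ribosomal protein genes were examined in TPC1 cells after 6 h and 24 h of treatment with the RET inhibitor BLU6864. Members were the protein-coding genes of the deposited table whose symbol starts with RPL or RPS followed by a digit or P, together with RPSA. Symbols starting with RPS6K, which are kinases, or with RPS4Y were left out. The rule took 87 of 20372 genes. Of the members, 77 encode the canonical proteins, 31 in the small and 46 in the large ribosomal subunit. Another 9 members are paralogs of canonical genes, such as RPL39L beside RPL39. RPS19BP1, the remaining member, is not a ribosomal protein by function and encodes a binding partner of RPS19. FAU and GNB2L1 encode further ribosome components under other names and are outside the rule.

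TPC1 is an established line of human papillary thyroid carcinoma cells with a CCDC6-RET rearrangement. RNA was sequenced from 2 libraries after 6 h and 2 libraries after 24 h of BLU6864, and every library came from drug-treated cells of this line. A vehicle control was not analysed here, so a difference is between the time points and not against untreated cells. Sources differ on the dose and the reads: 100 µM and 50 bp single-end in the labels, but 100 nM and paired ends of 100 cycles in the methods. The 24 h libraries carry the mark of a re-analysis in their labels and the 6 h libraries do not, so this mark and the time cannot be told apart. Nothing in the labels says that the libraries came from separate cultures, so P values measure the spread between these libraries, which may be technical. In bulk RNA, a change in the number of cells of one kind and a change of RNA per cell cannot be told apart.

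Depth was similar in the 4 libraries, with total counts from 23917056 to 27457040. Of the thyroid markers, PAX8, a transcription factor of thyroid follicular cells, had between 19124 and 22978 counts, whereas NKX2-1 and TSHR had 0 counts in every library. TG, which encodes thyroglobulin, was lower at 24 h, with 98 and 111 raw counts at 24 h and 186 and 245 at 6 h, and FOXE1, another thyroid transcription factor, was higher, with 462 and 556 raw counts at 24 h and 273 and 279 at 6 h. Their log2 fold changes were -1.09 and 0.84 (edgeR adjusted P = 2.77e-07 and 1.37e-07), tested as below. The 7 thyroid markers, mostly PAX8, summed to 20598 and 22330 counts at 24 h and 19585 and 23509 at 6 h. The 5 epithelial markers summed to 2944 and 3010 at 24 h and 2699 and 2841 at 6 h, mostly from keratins, and CDH1 and EPCAM had at most 11. The keratins moved in different directions. KRT19 was lower at 24 h (log2FC -1.59), KRT18 was higher (0.37), and KRT8 was not called (-0.05). The summed counts of 5 white blood cell markers were 91 and 93 at 24 h and 50 and 48 at 6 h, mostly from CD14, and PTPRC, which defines these cells, had at most 5. The summed counts of 5 fibroblast markers were 135 and 161 at 24 h and 257 and 277 at 6 h, while COL1A2 and COL3A1 were at 0. Within this sum COL1A1 was lower at 24 h (log2FC -1.57) and LUM was higher (0.75), though DESeq2 did not call LUM. The part of these markers in the results below was not tested.

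Each cytosolic ribosome pairs a small subunit, which decodes mRNA, with a large subunit, which forms peptide bonds, and nearly every ribosomal protein is present as a single copy in it. Most mRNAs of these genes start with a cytidine followed by a run of pyrimidines, the terminal oligopyrimidine (TOP) motif. Growth signals through the kinase mTORC1 control the translation and stability of TOP mRNAs, in part through the RNA-binding protein LARP1.

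To show this shared feature, start sites were read from RefSeq, build GRCh38.p14, which held 62 of the 77 canonical members. The sequences below run 5′ to 3′ on the transcribed strand, from 15 bases before the annotated start to 25 bases from the start on. Capitals mark a run of C and at least 4 further pyrimidines that begins within 10 bases of the start. Where a gene had several annotated starts, the one nearest to such a run is shown. The first 5 genes were higher at 24 h in the comparison below, RPS6 and RPLP1 did not pass the test, and RPL17 was lower.
RPS9 (chr19:54200843-54200882, plus strand): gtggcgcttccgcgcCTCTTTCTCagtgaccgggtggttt
RPL13 (chr16:89560667-89560706, plus strand): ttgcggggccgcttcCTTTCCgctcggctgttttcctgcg
RPL4 (chr15:66504831-66504870, minus strand): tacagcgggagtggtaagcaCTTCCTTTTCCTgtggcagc
RPL22 (chr1:6199571-6199610, minus strand): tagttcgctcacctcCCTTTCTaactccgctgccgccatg
RPL36A (chrX:101390996-101391035, plus strand): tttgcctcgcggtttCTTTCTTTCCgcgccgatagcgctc
RPS6 (chr9:19380212-19380251, minus strand): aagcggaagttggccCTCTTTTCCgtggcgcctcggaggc
RPLP1 (chr15:69452803-69452842, plus strand): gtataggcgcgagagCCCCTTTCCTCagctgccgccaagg
RPL17 (chr18:49492441-49492480, minus strand): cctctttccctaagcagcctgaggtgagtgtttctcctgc
A run beginning at the first transcribed base was found in 46 of the 62 canonical members, or 74.2%, against 6.32% of 14157 genes of the table with a RefSeq start. Within 10 bases of the start the shares were 91.9% and 41.5%. A gene with several starts was counted if any of them held the run. In RPL4 the run begins at the sixth transcribed base, and in RPL17 none began within 10 bases of the start. Of the canonical members that were higher at 24 h, 25 had a sequence and 76.0% held the run at the start. The share was 75% in the 36 that did not pass the test, nearly the same. The letters CCGGAAG on either strand, a core of binding sites for ETS factors, were found from 250 bases before to 50 bases after the start in 35.5% of the canonical members and 16.6% of all genes. The letters AAGATGG, part of the motif of the factor YY1, were found in 12.9% and 8.07%. Neither motif was particular to the members. In 67 genes of mitochondrial ribosomal proteins with a RefSeq start, the shares were 43.3% for CCGGAAG and 35.8% for AAGATGG.

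The libraries were compared first, because 1 of the 4 stood apart. Members took 5.15% and 5.20% of all counts at 24 h, and 4.45% and 5.15% at 6 h, where the lower value was that of replicate 1. The 2 libraries of 6 h therefore differed by more than the second 6 h library differed from those of 24 h. Of 76 canonical members with sufficient counts, 73 were lower in 6 h replicate 1 than in 6 h replicate 2, with a median log2 ratio of -0.21. Over all genes tested, the median ratio between these libraries was 0.012. At 24 h, the median log2 ratio of replicate 1 to replicate 2 was -0.054. Chi-square per degree of freedom between the 2 libraries was 179 for the members at 6 h, 21.7 for the members at 24 h, and 10.0 and 7.65 for all genes. This value grows with the count of a gene, and most members are abundant. It therefore compares the members between time points, but not the members with all genes. Because of the low library, the main values and some of the results below are also given without 6 h replicate 1.

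After TMM normalization, the time points were compared by the quasi-likelihood test of edgeR. The log2 fold change (log2FC) is positive where a gene was higher at 24 h, and P values were adjusted over all 12876 genes tested. Of the members, 83 had sufficient counts, and 4, RPL3L and RPL10L among them, were not tested. At an adjusted P under 0.05, transcripts of 33 members, or 39.8%, were higher at 24 h, while 33.0% of all genes were called higher. The share of members called higher was thus close to the background. Only 3 members, or 3.61%, were lower, whereas 32.6% of all genes were. These 3 were RPL17 and the paralogs RPL26L1 and RPL39L. A size cutoff was also used, a log2FC over 0.5 in size with an unadjusted P under 0.01. Downward, this cutoff is that of the methods, and the upward cutoff was added here as a mirror of it. By this cutoff RPL36A and RPS28 were higher, 2 members against 17.4% of all genes. In the opposite direction, 0 members and 17.7% of all genes passed. At an unadjusted P under 0.05 in edgeR 1 member, RPL39L, was below -0.5, and DESeq2 called 0 past the size cutoff. The members' changes were small, with a median log2FC of 0.15 and quartiles of 0.057 and 0.24, whereas the quartiles of all genes tested were -0.37 and 0.37 around a median of 0.0029. The log2FC was 0.5 or less in size in 80 of the 83 members, or 96.4%, and in 61.8% of all genes. Both 24 h libraries lay above both 6 h libraries in 43 members, or 51.8%, against 41.0% of all genes, and below them in 6 members, or 7.23%, against 40.8%. The groups overlapped in 34 of the 83 members, a larger share than over all genes, where they overlapped in 2342 of 12876. The calls and the median depended on the 6 h libraries. Without replicate 1 the members' median log2FC was 0.066, and without replicate 2 it was 0.24. Over all genes tested the median was 0.0058 without replicate 1 and 0.0056 without replicate 2. Without replicate 1 the share of members called higher fell below that of all genes. Removing the trend of fold change on coding length and GC content moved the members' median from 0.15 to 0.29.

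**Figure D1:**
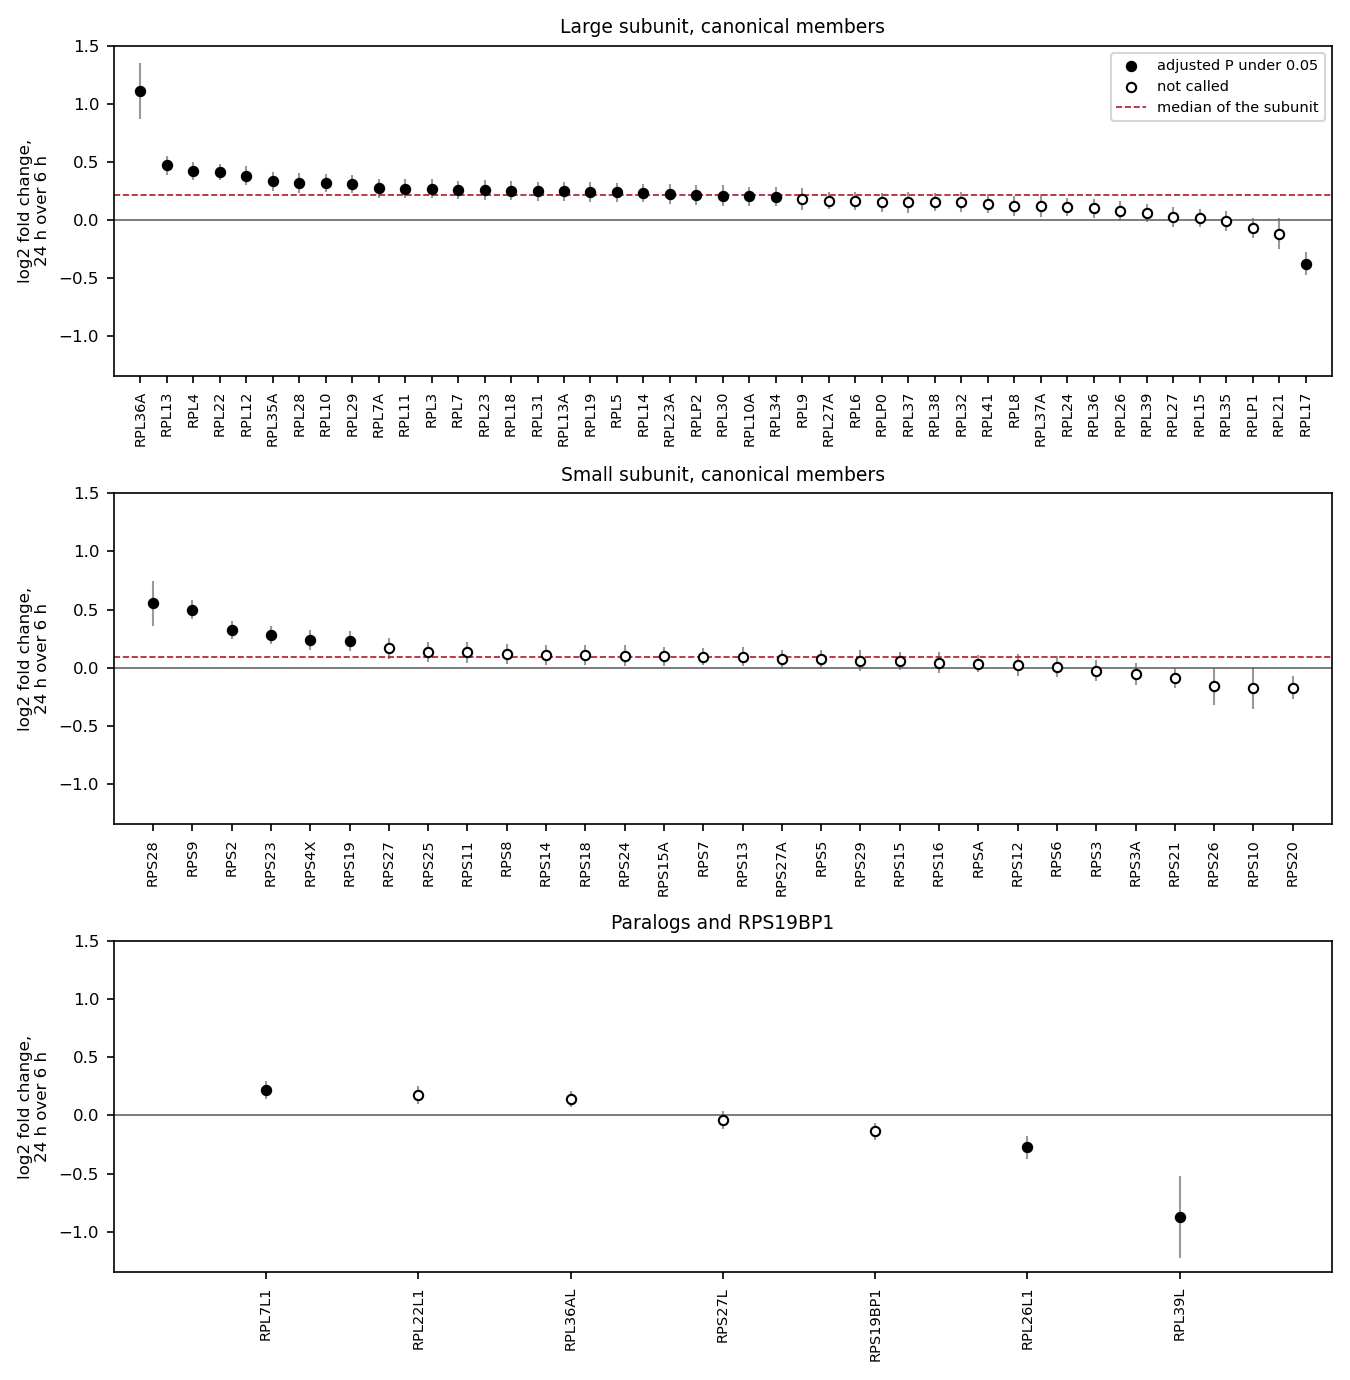
Log2 fold change of the members reported, 24 h over 6 h of BLU6864 (vertical axis), with members ordered by size within the large subunit, the small subunit, and the paralogs with RPS19BP1. Points are edgeR estimates from 2 libraries per time point, bars are standard errors, filled points have an adjusted P under 0.05, and the dashed line is the median over all tested members of a subunit. Most filled points are higher in the large subunit, where RPL17 is lower, and 6 are higher in the small subunit, and nearly all points lie within 0.5 of 0.

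The large subunit held most of the rises. Of 46 members tested, 26 were higher (56.5%) and 1 was lower at an adjusted P under 0.05, with a median log2FC of 0.21. In the small subunit, 6 of 30 were higher (20%), while 33.0% of all genes were. In edgeR 0 of these 30 were lower, against 32.6% of all genes, and the median was 0.094. At an unadjusted P under 0.05, and in DESeq2, 0 were lower also. These counts depended on 6 h replicate 1. Without it the log2FC was -0.34 for RPS20, -0.26 for RPS3A, and -0.22 for RPS21, and 11 of the 30 were above 0. The small subunit median was 0.051 with library size alone and turned to -0.057 when libraries were scaled to the members' summed counts. The difference in counts of calls between the subunits was not tested, because members are not replicates. It was instead compared across libraries. The small subunit took 2.08% and 2.13% of all counts at 24 h and 1.87% and 2.23% at 6 h, so the 24 h values lay between those of 6 h. The large subunit took 3.01% and 3.01% at 24 h and 2.52% and 2.86% at 6 h, and its groups did not overlap. The ratio of large to small subunit counts was 1.45 and 1.42 at 24 h, and 1.35 and 1.29 at 6 h. At 24 h its mean was 1.43 ± 0.0228 (SD, n = 2), against 1.32 ± 0.0441 at 6 h, a gap larger than the spread between libraries. The exact two-sided permutation test gave p = 0.333, the smallest that 2 libraries against 2 allow. The ratio was separated also in 6 h replicate 1, whose level of both subunits was low. Without RPS20, the member with the highest level, it was 1.61 and 1.58 at 24 h and 1.53 and 1.47 at 6 h. With only the 23 large and 14 small subunit members that share under 50% of their coding sequence with other genes, it was 1.47 and 1.45 at 24 h and 1.40 and 1.35 at 6 h. Without 6 h replicate 1, the median log2FC was 0.10 in the large and -0.026 in the small subunit, against 0.0058 over all genes tested. In that setting the share of the large subunit called higher no longer exceeded that of all genes. Without 6 h replicate 2, the medians were 0.30 in the large and 0.22 in the small subunit, against 0.0056 over all genes tested.

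**Figure D2:**
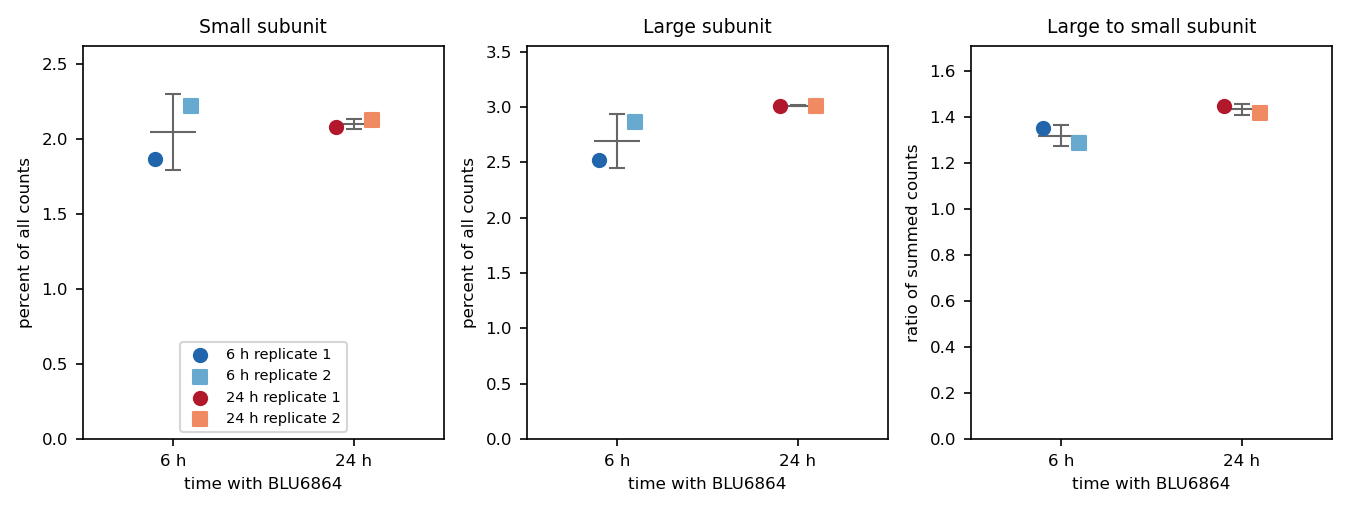
Percent of all counts on the canonical members of the small subunit (left) and large subunit (centre), and the ratio of large to small subunit counts (right), by time with BLU6864. Points are libraries, horizontal bars are means, and error bars are SD (n = 2). The 24 h values lie between those of 6 h for the small subunit and above them for the large subunit and the ratio.

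RPS9 and RPL13 carried the largest rises among abundant members. RPS9 (ENSG00000170889), at chr19:54704610-54752862 of hg19, encodes a protein of the small subunit that binds early to its rRNA, and it had 25458 and 26091 normalized counts at 24 h and 17564 and 18891 at 6 h. Its groups were well separated, and the log2FC was 0.50 (standard error 0.0798, edgeR adjusted P = 4.69e-06). RPL13 (ENSG00000167526), at chr16:89627065-89630950 of hg19, had 27845 and 27631 normalized counts at 24 h and 18922 and 21149.7 at 6 h, a log2FC of 0.47 (edgeR adjusted P = 1.65e-05). RPL4 (ENSG00000174444), at chr15:66790355-66816870 of hg19, encodes a protein that lines the exit tunnel of the nascent peptide. It had 28196 and 27096 normalized counts at 24 h and 20296 and 21075 at 6 h, and its log2FC was 0.42 (edgeR adjusted P = 5.07e-05). RPL22 (ENSG00000116251), at chr1:6241329-6269449 of hg19, had 5469 and 5541 normalized counts at 24 h and 3972 and 4309 at 6 h (log2FC 0.41, edgeR adjusted P = 1.71e-05). In each of these 4 genes the 24 h libraries lay close together and above both 6 h libraries. Without 6 h replicate 1, their log2FC values were 0.45, 0.39, 0.39, and 0.35, and each was still called.

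The other 2 of the 6 largest rises had few counts. RPL36A (ENSG00000241343), at chrX:100645812-100651105 of hg19, had 63 and 62 raw counts at 24 h and 26 and 30 at 6 h, and its log2FC of 1.11 had a standard error of 0.241 (edgeR adjusted P = 0.000246). Its libraries were separated, and without 6 h replicate 1 the value was 1.09. RPS28 (ENSG00000233927), at chr19:8386042-8388224 of hg19, had 90 and 114 raw counts at 24 h and 53 and 82 at 6 h, a log2FC of 0.55 (standard error 0.193, edgeR adjusted P = 0.0143). The rise of RPS28 was not called with DESeq2 (adjusted P = 0.131), without 6 h replicate 1 (edgeR adjusted P = 0.188), or without 24 h replicate 2 (edgeR adjusted P = 0.156). All coding 50-base words of both genes also occur in other genes, so their counts are uncertain.

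Other members called higher included RPS2, RPS23, RPS4X, and RPS19 in the small subunit and RPL12, RPL35A, RPL28, RPL10, RPL29, RPL7A, RPL11, RPL3, RPL7, RPL23, RPL18, RPL31, RPL13A, RPL19, RPL5, RPL14, RPL23A, RPLP2, RPL30, RPL10A, and RPL34 in the large subunit, with log2FC values between 0.20 and 0.38. RPL7L1, a paralog, was also called higher. Of the 33 genes called higher, 10 were called in each of the 11 other planned settings. These were RPL4, RPL10, RPL12, RPL13, RPL22, RPL29, RPL35A, RPL36A, RPS2, and RPS9. The settings included each library left out in turn. RPS4X, for one, was not called without 24 h replicate 1, 24 h replicate 2, or 6 h replicate 1. RPS2, on the mRNA entry side of the small subunit, had 17305 and 18086 normalized counts at 24 h and 14162 and 14093 at 6 h, so that its 6 h libraries were nearly equal (log2FC 0.32, edgeR adjusted P = 0.000592). RPL35A had 27177 and 28557 normalized counts at 24 h and 20892 and 23465 at 6 h (log2FC 0.33, edgeR adjusted P = 0.00112).

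RPL17 was the only canonical member called lower, and all its coding 50-base words also occur in other genes. RPL17 (ENSG00000265681), at chr18:47014851-47018906 of hg19, encodes a protein at the exit tunnel and had 644 and 725 normalized counts at 24 h and 777 and 998 at 6 h. Its log2FC was -0.38 (standard error 0.0985, edgeR adjusted P = 0.00154), and both 24 h libraries lay below both 6 h libraries. Without 6 h replicate 2 the log2FC was -0.19 and the call was lost (edgeR adjusted P = 0.14), whereas without 6 h replicate 1 it was -0.54 and still called. RPS20 (ENSG00000008988), at chr8:56979854-56987069 of hg19, whose protein sits in the head of the small subunit, had 55712 and 59837 normalized counts at 24 h and 57424 and 72958 at 6 h. The gap between its 6 h libraries was wider than that between time points, and its log2FC of -0.17 did not pass the test (edgeR adjusted P = 0.125). Without 6 h replicate 1, RPS20 was lower at 24 h, with a log2FC of -0.34 (edgeR adjusted P = 0.0002). RPS10 and RPS26, with log2FC values of -0.17 and -0.16, had at most 135 raw counts in a library and did not pass.

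**Figure D3:**
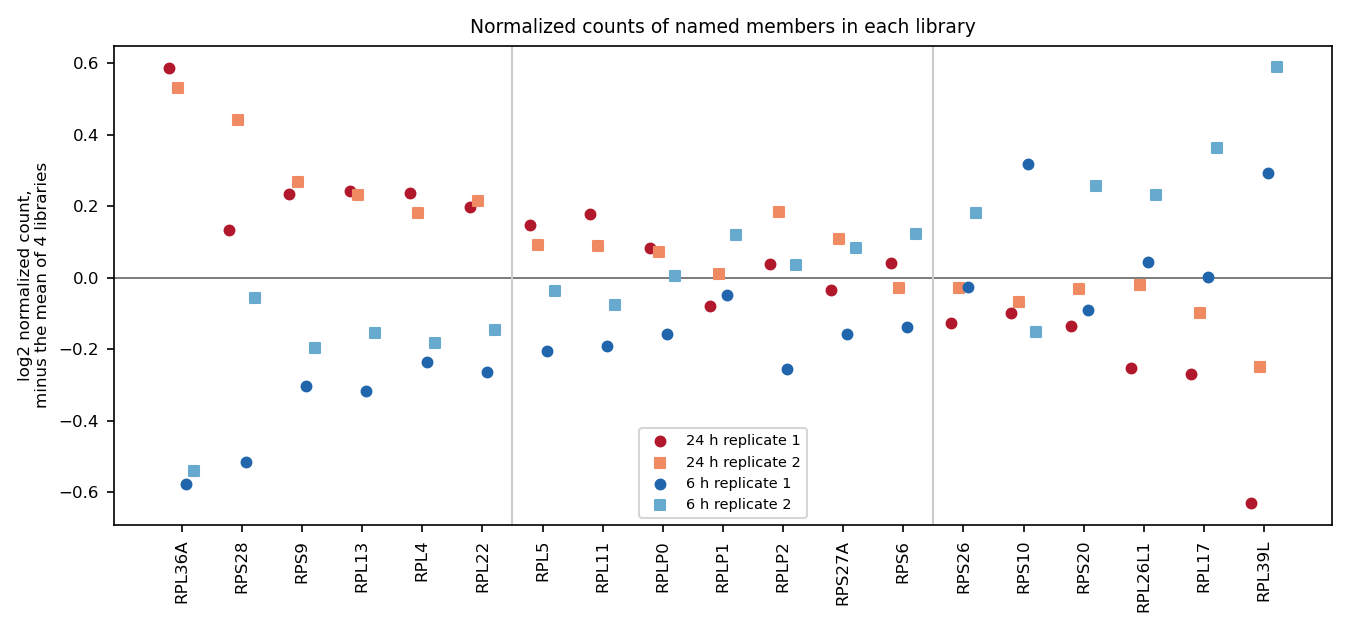
Log2 normalized count of 19 named members in each of the 4 libraries, minus the mean of the 4 libraries (vertical axis). The left block holds the 6 largest and the right block the 6 smallest log2FC values, and the middle block holds members of the 5S RNP, the P stalk, RPS27A, and RPS6. In the left block both 24 h libraries lie above both 6 h libraries, whereas in the middle block 6 h replicate 1 is the lowest library in all members except RPLP1.

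Members with defined roles showed small differences. RPL5 and RPL11 form the 5S RNP with 5S rRNA, which also binds MDM2 when ribosome assembly is disturbed. RPL5 had 26580.0 and 25569 normalized counts at 24 h and 20834 and 23393 at 6 h, and RPL11 had 32697 and 30748 normalized counts at 24 h and 25306 and 27389 at 6 h. Both were higher at 24 h, with log2FC values of 0.24 and 0.27 (edgeR adjusted P = 0.0137 and 0.00605). RPL11 was not called without 24 h replicate 1 (edgeR adjusted P = 0.105). RPL5 was not called without 24 h replicate 1, 24 h replicate 2, or 6 h replicate 1 (edgeR adjusted P = 0.122, 0.0519, and 0.0706). The P stalk recruits translation factors to the large subunit. RPLP0, its base, had 26893 and 26680.5 normalized counts at 24 h and 22756 and 25471 at 6 h, and its log2FC of 0.15 did not pass the test. RPLP1 had 22899.7 and 24382 normalized counts at 24 h and 23427 and 26277 at 6 h, with overlapping groups and a log2FC of -0.07. RPLP2 was called higher, with a log2FC of 0.21 (edgeR adjusted P = 0.0335), but had 12754 and 14105 normalized counts at 24 h and 10418 and 12732 at 6 h. The second 6 h library was thus close to the first 24 h library, and the call was lost without 6 h replicate 1 (edgeR adjusted P = 0.424), without 24 h replicate 2 (edgeR adjusted P = 0.286), and with library size alone (edgeR adjusted P = 0.0917).

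RPS6, the substrate of the S6 kinases downstream of mTORC1, did not differ between the time points beyond its error. It had 49497 and 47197 normalized counts at 24 h and 43758 and 52408 at 6 h, and the 24 h libraries lay between those of 6 h. Its log2FC was 0.01 (standard error 0.0916). RPS27A, which is made as a fusion with ubiquitin, had 8382 and 9242 normalized counts at 24 h and 7692 and 9084 at 6 h and a log2FC of 0.07, also with overlapping groups. Of the 4 members of mRNA entry and decoding, RPS2 and RPS23 were higher (50.0%), and RPS3 and RPS15 were not called. Of the 10 members of the exit tunnel and its rim, 5 were higher (50.0%) and RPL17 was lower (10.0%). RPL26, RPL35, RPL38, and RPL39 were not called. Of all genes, 33.0% were higher and 32.6% lower. Those higher without 6 h replicate 1 were RPS2 of the first group and RPL4 and RPL22 of the second. Of the 17 genes mutated in Diamond-Blackfan anemia, an inherited failure of red cell production, 16 were tested and 6 were higher, or 37.5% against 33.0% of all genes, with a median log2FC of 0.099. These were RPS28, RPL35A, RPL11, RPL31, RPL5, and RPS19, and without 6 h replicate 1 they were RPL35A and RPL11, with a median of 0.022. Without 24 h replicate 2 there were also 2, and without 6 h replicate 2 there were 10. Of the 4 X-linked canonical members, RPL36A, RPL10, and RPS4X were higher, and RPL39 was not called. RPS4X was not called without 6 h replicate 1 (edgeR adjusted P = 0.0528).

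Of the paralogs, 6 could be tested, of which 1 was called higher (16.7% against 33.0% of all genes). Another 2 were called lower (33.3% against 32.6%), near the share of all genes. RPL39L, a copy of RPL39 best known from the testis, had 12 and 16 raw counts at 24 h and 21 and 29 at 6 h. Its groups were separated, but the log2FC of -0.87 had a standard error of 0.353 (edgeR adjusted P = 0.0321), and it was not called with DESeq2 (adjusted P = 0.243). The call was also lost when any single library was left out, with edgeR adjusted P values from 0.0536 to 0.208. RPL39 had 1550.2 and 1901 normalized counts at 24 h and 1678 and 1639 at 6 h and a log2FC of 0.06, which was not called. RPL26L1 fell, with 527 and 599.6 normalized counts at 6 h and 429 and 504 at 24 h, a log2FC of -0.27 (edgeR adjusted P = 0.0179) that DESeq2 did not call (adjusted P = 0.104). It was -0.15 without 24 h replicate 1 and -0.18 without 6 h replicate 2, not called in either (edgeR adjusted P = 0.241 and 0.212), and upper quartile scaling also lost the call (edgeR adjusted P = 0.0504). RPL26 was not called, at 0.08. RPL7L1 rose by 0.22 on the log2 scale (edgeR adjusted P = 0.016), close to the 0.26 of RPL7, and DESeq2 did not call it (adjusted P = 0.0506). Its log2FC was 0.09 without 24 h replicate 1 (edgeR adjusted P = 0.376) and 0.35 without 24 h replicate 2, and the call was lost also without 6 h replicate 2 and with library size alone.

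RPL22L1 had 4065 and 4065 normalized counts at 24 h and 3226 and 3962 at 6 h and a log2FC of 0.18 (edgeR adjusted P = 0.0573), which did not pass, whereas RPL22 rose by 0.41. The RPL22L1 value was 0.04 without 6 h replicate 1 and 0.33 without 6 h replicate 2, where it was called (edgeR adjusted P = 0.00143), as it was with upper quartile scaling and with the replicate block (edgeR adjusted P = 0.0488 and 0.00583). The difference between each paralog and its canonical copy was not tested. RPL36AL, at 0.14, and RPS27L, at -0.04, were not called, and neither was RPS27, at 0.17. RPL36AL had a level of 484 CPM (counts scaled to a library of 1000000) per coding kilobase, far above the 5.41 of RPL36A. However, 100% of the coding 50-base words of RPL36A occur in other genes, against 36.1% of those of RPL36AL. The part of this sharing in their levels was not tested. RPL3L, the copy of RPL3 used in striated muscle, had 0 and 2 raw counts at 24 h and 3 and 3 at 6 h, and RPL10L, a testis copy of RPL10, had 3 and 3 raw counts at 24 h and 6 and 10 at 6 h. RPL3 and RPL10 themselves had log2FC values of 0.27 and 0.31 and were called higher. RPS19BP1 had 1192 and 1141 normalized counts at 24 h and 1232 and 1333 at 6 h and a log2FC of -0.14, which was not called.

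Changes within the set were examined next. To do so, each library was scaled to the summed counts of the members, a setting chosen after the data were seen. This scaling moved the median log2FC of all genes tested from 0.0029 to -0.15. With it, RPS9 (log2FC 0.34, edgeR adjusted P = 0.0419) and RPL36A (0.96, edgeR adjusted P = 0.00113) were higher than the other members at 24 h, 2 genes, against 17.0% of all genes called higher under this scaling. RPL39L, RPL17, RPL26L1, and RPS20 were lower, 4 genes, against 33.5% of all genes. For RPS20 the log2FC was -0.32 (edgeR adjusted P = 0.0388). Without 6 h replicate 1 the same scaling gave a median log2FC of 0.015 over 84 members, of which 44 were above 0. RPL36A and RPS9 were then at 1.04 and 0.40. RPL39L, RPL17, RPL26L1, and RPS20 were at -1.06, -0.60, -0.41, and -0.39. Scaling to the members' own sum sets some of them above 0 and others below. The order of the canonical members was similar in 2 pairs of libraries that share none. Between the log2 ratio of 24 h to 6 h in the libraries numbered 1 and that in the libraries numbered 2, Pearson's r was 0.773 and Spearman's rho was 0.703 over 76 genes. With the numbers crossed, the values were 0.682 and 0.606. All genes of a ratio share its 2 libraries, so these values are a description over genes, which are not independent replicates. The median ratio was 0.24 and 0.073 in the first pairing and 0.038 and 0.29 in the second, and in each pairing the higher value came from 6 h replicate 1.

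The level of the members varied over a wide range, and it was lower where more of their coding sequence is found elsewhere. Level is given as CPM per coding kilobase, the mean of 4 libraries. RPS20 had 6584, RPL37A 3894, and RPL30 3779, the 3 highest levels, while RPL36A had 5.41 and RPS10 7.15. RPL37A had 27290.4 and 31289 normalized counts at 24 h and 23772 and 30086 at 6 h with overlapping groups, and RPL30 had 35901 and 37196 normalized counts at 24 h and 29249.5 and 34043 at 6 h. RPL30 was called higher by 0.21 on the log2 scale (edgeR adjusted P = 0.0384), but not without 6 h replicate 1 (edgeR adjusted P = 0.231), without either 24 h library, or with library size alone. Ribosomal protein genes have many processed pseudogenes, so each 50-base word of a coding sequence was searched in the transcripts of all other genes of GENCODE v44. Words of 50 bases have the length of the reads that the labels give. Across 76 canonical members, the level fell with the percent of words shared, with a Spearman correlation of -0.834 and a Pearson correlation of -0.758 on the log2 level. All these levels come from the same 4 libraries. The 10 members with all words shared had a median level of 35.0, from 5.41 to 475. These were RPL17, RPL21, RPL36A, RPL39, RPL41, RPS3A, RPS10, RPS26, RPS27, and RPS28. The median was 703 in the 29 members with 50 to under 100% shared, 1981 in the 24 with 10 to under 50%, and 1732 in the 13 with under 10%. How the counting program treated reads of shared words is not given in the sources used here, and their part in these levels was not tested. Over all 76 members the rank of the change between time points did not follow sharing, with a Spearman correlation of -0.0375. The median log2FC was nevertheless 0.0022 in the 10 members with all words shared, and 0.17, 0.15, and 0.15 in the other groups, in the order above. Those 10 held the largest rises, of RPL36A and RPS28, and RPL17, the only canonical member called lower. The part of sharing in these changes was not tested. The genomic interval of 34 members overlaps that of another gene in the table. The read-through genes RPL17-C18orf32, RPL36A-HNRNPH2, and RPS10-NUDT3, which overlap RPL17, RPL36A, and RPS10, were listed at 0 counts in every library.

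**Figure D4:**
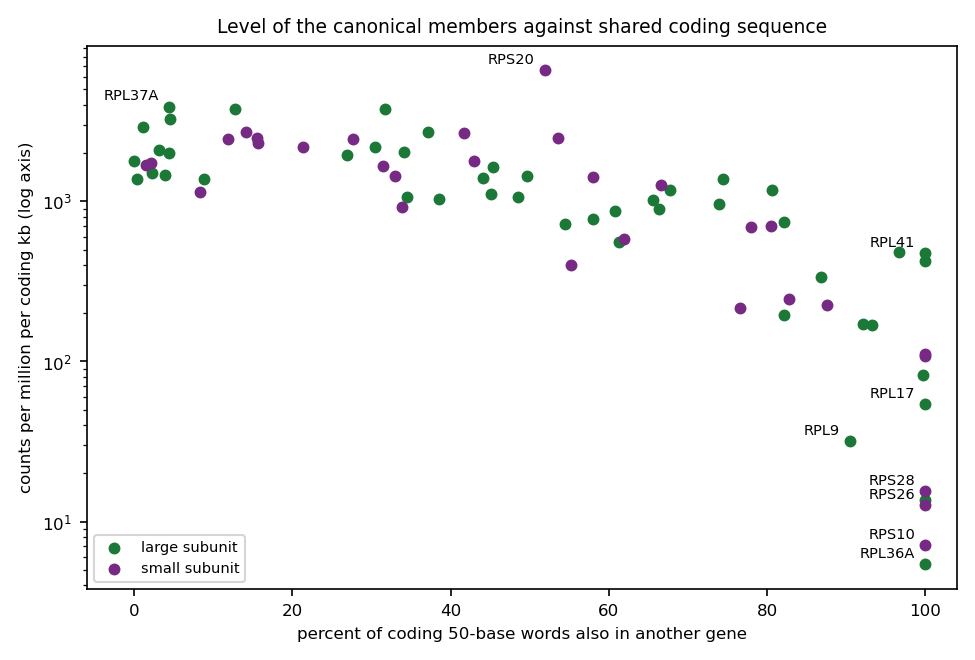
Level of 76 canonical members in CPM per coding kilobase (mean of 4 libraries, vertical log axis) against the percent of their coding 50-base words that also occur in another gene (horizontal axis). Each point is a member, coloured by subunit. The members at 100% range from 5.41 (RPL36A) to 475 (RPL41), and those under 10% from 1145 to 3894.

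Other lists of the pathway were compared in the same fit. Of the ribosome components outside the rule, GNB2L1, also called RACK1, was higher, with a log2FC of 0.48 (edgeR adjusted P = 1.71e-05). FAU, which encodes a ubiquitin-like fusion, was not called, at 0.11. Of 18 non-ribosomal genes with TOP mRNAs, 13 were higher (72.2% against 33.0% of all genes) and 1 was lower (5.56% against 32.6%), with a median log2FC of 0.31, and without 6 h replicate 1 the counts were the same and the median was 0.32. The elongation factor EEF2 had 57414 and 59867 normalized counts at 24 h and 34903 and 34511 at 6 h and a log2FC of 0.76 (edgeR adjusted P = 1.25e-08). The initiation factors EIF4B and EIF3L were higher by 0.75 and 0.57. EEF1B2, the gene that was lower, had a log2FC of -0.19 (edgeR adjusted P = 0.0438). This call was lost with DESeq2, with upper quartile scaling, with TMM factors taken without the members, with at least 10 counts required in every library, and when any single library other than 6 h replicate 1 was left out. Scaled to the summed counts of the members, 3 of the 18 genes were called higher by edgeR, close to the 17.0% of all genes under this scaling. In the other direction 0 were called lower, against 33.5% of all genes, and the median log2FC was 0.16. With that scaling but without 6 h replicate 1, the median was 0.27. In these genes the median deviation from the mean of the 4 libraries was 0.17 and 0.16 at 24 h and -0.16 and -0.16 at 6 h, so that 6 h replicate 1 did not stand apart. In the small subunit it was 0.028 and 0.067 at 24 h and -0.17 and 0.071 at 6 h, and in the large subunit 0.095 and 0.12 at 24 h and -0.21 and -0.020 at 6 h.

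Chaperones and escorts of ribosomal proteins rose in part, with 8 of 13 tested higher, or 61.5% against 33.0% of all genes, and a median log2FC of 0.30. The count higher was 7 without 6 h replicate 1. In edgeR 0 were lower, also at an unadjusted P under 0.05, and DESeq2 gave 0, whereas library size alone gave 1. The largest rises were those of RRS1, which brings the 5S RNP to the early large subunit, at 2.22, and BYSL, an assembly factor of the small subunit, at 1.56. RRS1 had 599 and 577 normalized counts at 24 h and 140.3 and 113 at 6 h, and BYSL had 479 and 453 normalized counts at 24 h and 148 and 168 at 6 h, with separated groups in both. GRWD1, a chaperone of RPL3, rose by 0.998, RPF2, the partner of RRS1, by 0.87, and LTV1, an escort in small subunit assembly, by 0.73. HEATR3 and TSR2, which serve RPL5 and RPS26, were not called, at -0.15 and -0.09. Of the regulators of TOP mRNAs and mTORC1, 17 were tested, 6 were higher (35.3%), and 7 were lower (41.2%), near the 33.0% and 32.6% of all genes. The counts were 6 and 5 without 6 h replicate 1. LARP1 had 4757 and 5131 normalized counts at 24 h and 3238 and 3478 at 6 h, a log2FC of 0.56 (edgeR adjusted P = 2.10e-07). MYC, a transcription factor that raises ribosomal protein transcription, had 2593 and 2649 normalized counts at 24 h and 465 and 453 at 6 h, a log2FC of 2.51. TSC2, a negative regulator of mTORC1, was higher by 0.53. DDIT4 and SESN1, stress-induced inhibitors of mTORC1, were lower, with log2FC values of -1.32 and -0.83, and so was RHEB, its activator, at -0.68. Of the 8 RPS6 kinase genes tested, 4 were higher (50.0%) and 1 lower, led by RPS6KA2 at 0.78, while RPS6KB1, the main S6 kinase, was lower at -0.24. The call of RPS6KB1 was lost with DESeq2, without 24 h replicate 2, and without 6 h replicate 1.

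The mitochondrial ribosomal proteins, which build a separate ribosome, moved in both directions. Of 75 tested, 19 were higher (25.3% against 33.0% of all genes) and 23 were lower (30.7% against 32.6%), with a median log2FC of -0.068. The counts were 15 and 23 without 6 h replicate 1. The size cutoff was passed upward by 4 genes (5.33% against 17.4%), MRPS24, MRPS17, MRPS2, and MRPS12, with log2FC values of 1.35, 0.81, 0.56, and 0.55. It was passed downward by 9 genes (12.0% against 17.7%), MRPL38, MRPS10, MRPL39, MRPL13, MRPS6, MRPL22, MRPL51, MRPS18C, and MRPS11, from -1.09 to -0.50. The canonical cytosolic members ranged from -0.38 to 1.11, and 74 of 76 lay within 0.5 of 0. The median deviation of the mitochondrial genes was -0.021 and -0.040 at 24 h and -0.016 and 0.057 at 6 h, so 6 h replicate 1 lay near both 24 h libraries. A run of C and at least 4 pyrimidines at the start was found in 8.96% of 67 of these genes with a RefSeq sequence. It was found in 84.6% of 13 of the non-ribosomal TOP genes.

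**Figure D5:**
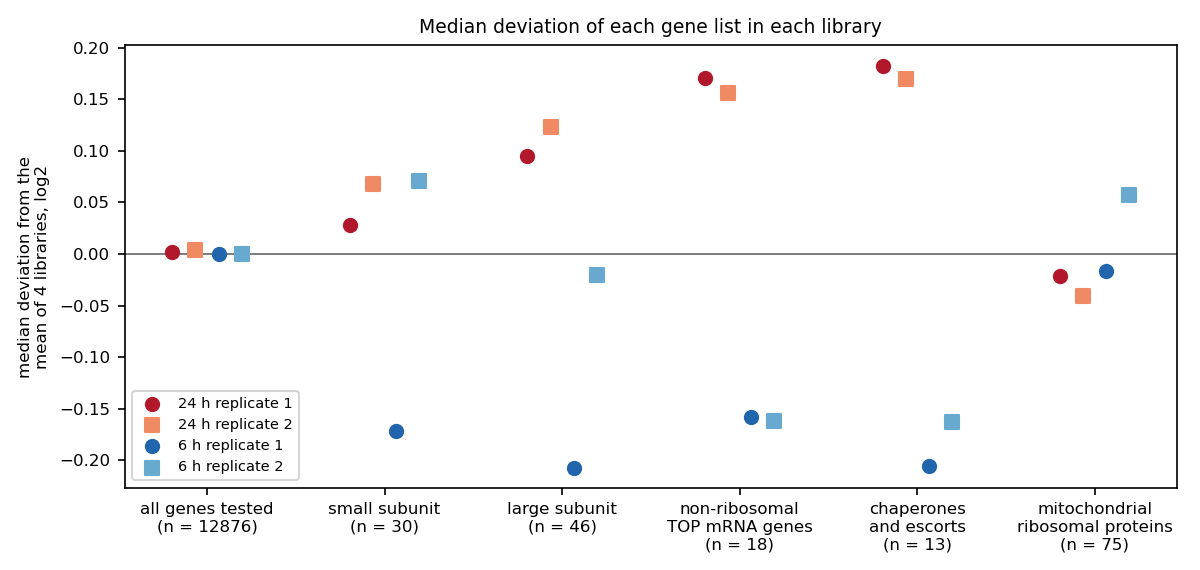
Median deviation of each gene list from its mean over the 4 libraries, on the log2 scale (vertical axis), for all genes tested, the canonical members of each subunit, and 3 other lists, with the number of genes tested under each name. Each point is a library. In both subunits 6 h replicate 1 lies lowest, at -0.17 and -0.21, whereas the 2 libraries of 6 h lie together at -0.16 in the non-ribosomal TOP genes.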

How the data were processed

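Both time points of BLU6864 in TPC1 cells, 6 h and 24 h, had 2 RNA sequencing libraries. The authors aligned the reads with STAR. The submitters' processing notes give version 2.3 and hg19, whereas the methods give a later version and no build for these libraries. The counting program and strand setting are not given in the sources used here. The authors deposited the raw count of reads per gene and a signal, the count divided by a DESeq2 size factor, with their own DESeq2 fold changes and P values, which were not used. The number of per-sample columns left unused was 0. Table positions follow hg19 and were not mixed with GENCODE v44 or RefSeq, which gave coding and start sequences.

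Raw counts were tested with edgeR 4.0.16 (R 4.3.3, limma 3.58.1), using filterByExpr, TMM, and the quasi-likelihood test with time as the single factor and Benjamini-Hochberg adjustment. For normalized counts, each library was rescaled to the mean of the TMM effective library sizes. DESeq2 1.42.0, other scalings, filters, the replicate block, and each library left out served as alternatives. The fit was tested on simulated data. Libraries were grouped by the time in their labels. Members, role groups, and lists were chosen with earlier results of these data known. Named were the 6 largest and 6 smallest changes, calls over 0.5 in size, the 3 highest levels, paralogs with their copies, the members with set roles, the untested members, and genes of other lists past the size cutoff or largest. Others, such as RPS2, RPL35A, RPS19, HEATR3, TSR2, and EEF1B2, were named after their values were seen. Canonical members without a RefSeq start were not searched for motifs. Plots used matplotlib 3.10.9. Other treatments were not analysed here. Some genes are not reported here.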

Additional observations from a re-analysis of the deposited data

How the results depend on the processing

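Of 33 members higher and 3 lower, 2 and 0 passed the size cutoff. With each library left out in turn, the count of higher members ranged from 15 to 57 and that of lower members from 0 to 5, and past the size cutoff the ranges were 1 to 4 and 0 to 1. The lowest count of higher members came without 6 h replicate 1 and the highest without 6 h replicate 2. Leaving out a library leaves 1 sample in its group, which is assumed to vary like the other group. DESeq2 gave 1 lower member at an adjusted P under 0.05. Past the size cutoff, DESeq2 and library size alone each gave 1 higher member and 0 lower members. Scaling to the summed counts of the members, added after the data were seen, gave 2 higher members. With only the canonical members, 1 was lower. Other scalings, filters, and the removal of the trend on coding length and GC content kept the direction of the median change. Over the 11 other planned fits and the scaling to the members, the log2FC of none of the 36 called members and 88 called genes of other lists changed sign. The cause of these differences was not tested, except that fewer libraries leave fewer degrees of freedom.

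Libraries of 6 h and 24 h carry the same numbers, 1 and 2, but nothing says that they pair the libraries, and deviations of same-numbered libraries had a correlation of 0.0642 over all genes tested. With a replicate block, 40 members were higher and 3 lower. With 2 libraries per group, outliers were not tested, and low counts limit RPL36A, RPS28, RPS10, RPS26, and RPL39L.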
